A study of Mus musculus with 8 samples.

Results

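Transcripts of 10 genes that make thromboxane, prostaglandins and leukotrienes were followed in 8 RNA-seq libraries of mouse megakaryocytes, the large marrow cells that release platelets. The genes were taken as the rows of the count table whose Ensembl identifiers map to Pla2g4a, Ptgs1, Ptgs2, Tbxas1, Ptges, Hpgds, Alox12, Alox5, Alox5ap and Lta4h. All 10 were found among the 27679 genes listed, and all 10 passed the low-count filter that kept 13845 genes for testing. Their identity as eicosanoid enzymes comes from the gene names, and no lipid product was measured.

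The series compares 4 hydrogel cultures with 4 liquid cultures, which the submitters describe as independent biological replicates. Both groups were megakaryocytes of WT C57BL/6 mice, with no allele or agent that separated them, grown from marrow cells depleted of lineage-positive cells. Culture lasted 3 days, either in a soft gel (2% methylcellulose, Young modulus 30 to 60 Pa) or in liquid medium, and a 2 to 4% BSA gradient afterwards selected for large, mature cells. The depletion and the gradient enrich for megakaryocytes without a marker-based sort, so other marrow cells can remain. Libraries held 27012172 to 37059314 counts in hydrogel and 28825468 to 49281611 counts in liquid. In their summed megakaryocyte and macrophage markers, hydrogel 1 and liquid 2 stood closer to the other culture than their replicates did. For the genes named below, calls that turn on either are given with and without it. Both libraries were picked from these same data. Leaving out libraries that lie nearest the other culture tends to widen the gap between groups, so calls gained that way are not separate support. Without both, the share of all tested genes called rose from 29.3% to 40.6%.

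Arachidonic acid is cut from membrane phospholipids by phospholipase A2 and then enters either of a pair of routes. Cyclooxygenases turn it into prostaglandin H, from which separate synthases make thromboxane, prostaglandin E and prostaglandin D, while lipoxygenases turn it into hydroperoxides or, with a helper protein in the membrane, into leukotrienes. Platelets inherit cyclooxygenase, thromboxane synthase and the platelet-type lipoxygenase from megakaryocytes, and thromboxane released by activated platelets recruits further platelets.

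Of the 10 genes, 2 were higher in hydrogel, 1 was lower and 7 did not pass (edgeR's quasi-likelihood test, Benjamini-Hochberg adjustment over all tested genes, threshold 0.05). That is 30% of the genes, against a background of 29.3% of all 13845 tested genes, with 15.1% higher and 14.1% lower. The share called was therefore close to that of all genes. Ptgs2 and Hpgds were higher and Alox12 was lower, and the calls of these 3 genes held under all 17 alternative settings. The median log2 fold change, hydrogel over liquid, was 0.02 over the 10 genes and -0.01 over all tested genes. Fold changes below always run hydrogel over liquid, and CPM are read counts relative to library size after TMM scaling, a correction for composition.

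The promoters of 4 of these genes are printed because they belong to the 3 genes that passed the test and to Ptgs1, the isoenzyme that is set beside Ptgs2. They are RefSeq sequences of build GRCm38.p6, 300 bases each, running from 250 bases before the annotated start to 50 bases after it, 5′ to 3′ on the strand of the gene. Capitals mark matches to the motifs named after the sequences. Ptgs2 lies at chr1:150099781-150100080 on the plus strand, Ptgs1 at chr2:36230176-36230475 on the plus strand, Hpgds at chr6:65144681-65144980 on the minus strand and Alox12 at chr11:70255321-70255620 on the minus strand.
Ptgs2: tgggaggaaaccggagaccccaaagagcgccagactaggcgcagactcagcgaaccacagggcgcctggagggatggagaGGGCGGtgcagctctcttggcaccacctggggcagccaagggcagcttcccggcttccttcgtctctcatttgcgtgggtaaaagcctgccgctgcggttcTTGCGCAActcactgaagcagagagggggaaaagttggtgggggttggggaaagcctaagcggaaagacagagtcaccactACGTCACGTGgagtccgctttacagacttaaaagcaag
Ptgs1: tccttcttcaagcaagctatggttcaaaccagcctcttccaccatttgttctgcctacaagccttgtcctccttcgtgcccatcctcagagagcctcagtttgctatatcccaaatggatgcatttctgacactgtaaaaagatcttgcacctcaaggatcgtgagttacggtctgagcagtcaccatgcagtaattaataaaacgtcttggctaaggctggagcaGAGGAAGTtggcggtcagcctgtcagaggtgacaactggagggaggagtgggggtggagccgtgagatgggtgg
Hpgds: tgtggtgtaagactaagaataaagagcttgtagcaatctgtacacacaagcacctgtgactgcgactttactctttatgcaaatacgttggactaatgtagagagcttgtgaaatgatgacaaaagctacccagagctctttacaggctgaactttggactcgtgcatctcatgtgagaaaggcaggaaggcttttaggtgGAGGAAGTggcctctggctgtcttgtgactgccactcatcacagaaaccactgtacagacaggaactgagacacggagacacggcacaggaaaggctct
Alox12: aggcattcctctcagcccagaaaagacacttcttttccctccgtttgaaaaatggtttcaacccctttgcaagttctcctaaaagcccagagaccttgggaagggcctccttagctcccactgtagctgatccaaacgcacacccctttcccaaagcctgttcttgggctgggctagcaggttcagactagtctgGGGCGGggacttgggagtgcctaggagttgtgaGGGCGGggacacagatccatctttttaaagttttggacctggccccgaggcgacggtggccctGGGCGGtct

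Of the 10 genes, 9 had an entry in the promoter table, with 10 promoters in all because Pla2g4a had 2. Both strands were searched for 7 short motifs, whose letters were chosen after the promoters were seen. The C/EBP palindrome TTGCGCAA was found in Ptgs2 and in 0.183% of all 32851 promoters in the table. The Ptgs2 window also held ACGTCA, a half-site of the cyclic AMP response element with a flanking base, found in 7.51% of promoters. It held the E box CACGTG too, found in 7.15%. These last matches overlap each other in the capital run near the end of the sequence. The PU.1 and ETS core GAGGAAGT was found in Hpgds and Ptgs1 and in 3.20% of all promoters. The SP1 box GGGCGG was found in Alox12, Alox5, Ptges and Ptgs2 and in 35.7% of all promoters, with 3 matches in Alox12. The TATA sequence TATAAA was found in Pla2g4a and Tbxas1 and in 13.6% of all promoters. The GATA motif AGATAA was found in 11.2% of all promoters and in no promoter of these genes. A match describes the letters in this window and is not a measured binding site.

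**Figure D1:**
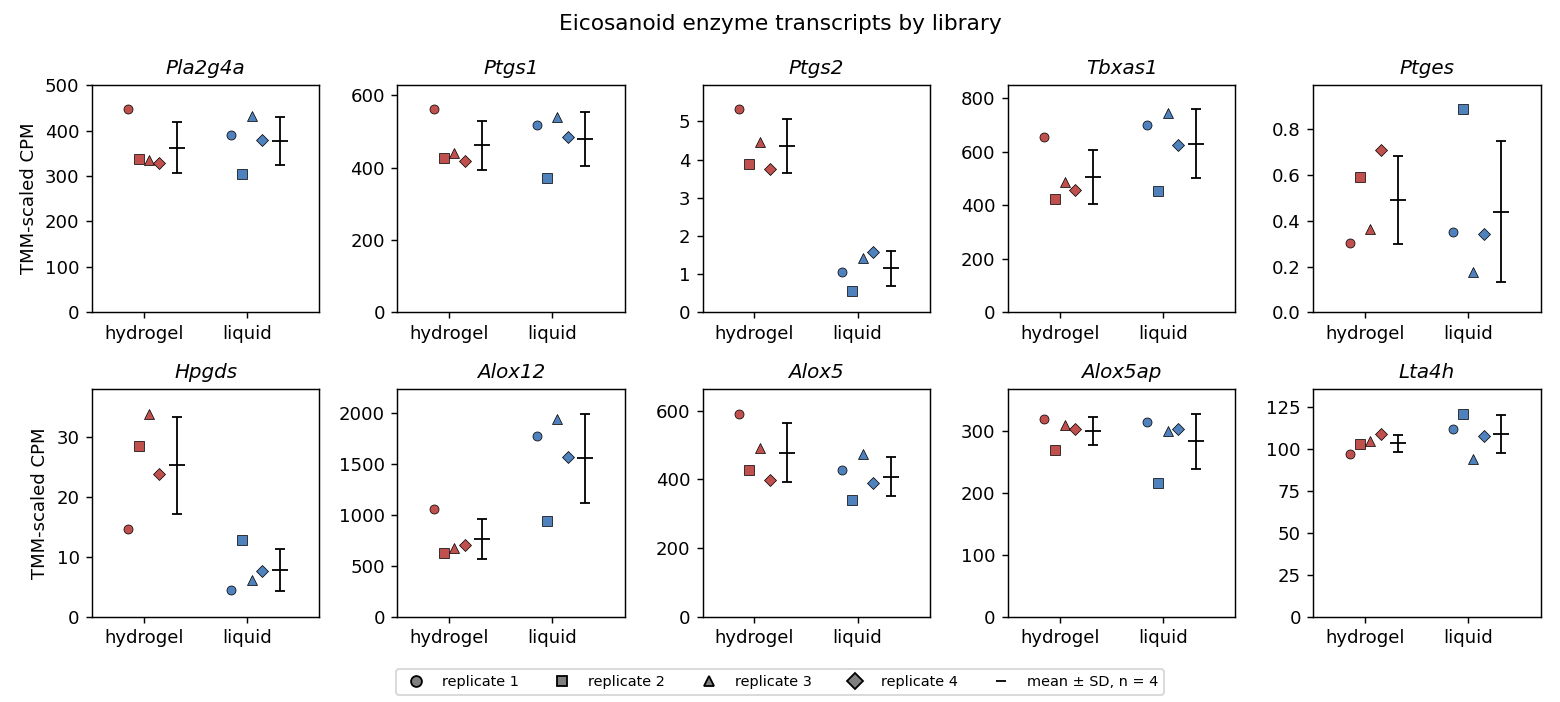
TMM-scaled CPM of the 10 genes in each library (y axis, linear from 0, a separate scale for each gene), with hydrogel left of liquid, symbols for replicate numbers, and bars for mean ± SD (n = 4 each). Ptgs2 and Hpgds lie higher in all hydrogel libraries, Alox12 overlaps only through hydrogel 1 and liquid 2, and the other genes overlap.

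Release of arachidonic acid is represented by Pla2g4a (ENSMUSG00000056220), the cytosolic phospholipase A2. Its level was 447, 338, 335 and 330 CPM in hydrogel 1 to 4, against 389, 305, 433 and 379 CPM in liquid 1 to 4. The groups overlapped, with hydrogel 1 the highest of all libraries and liquid 2 the lowest. The log2 fold change was -0.06 ± 0.13 (SE), with a 95% confidence interval of -0.35 to 0.23 and an edgeR adjusted p of 0.784. Without both hydrogel 1 and liquid 2 the log2 fold change was -0.25 and passed the test with an adjusted p of 0.0163.

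Of the cyclooxygenases, Ptgs2 was higher in hydrogel, and Ptgs1 did not pass the test. Ptgs1 (ENSMUSG00000047250) encodes the constitutive isoenzyme that supplies platelets. It had 562, 427, 440 and 418 CPM in hydrogel 1 to 4, against 517, 373, 540 and 486 CPM in liquid 1 to 4. The groups overlapped across most of their range, again with hydrogel 1 highest and liquid 2 lowest. Its log2 fold change was -0.05 ± 0.13, with a confidence interval of -0.35 to 0.25 and an edgeR adjusted p of 0.801, and without both hydrogel 1 and liquid 2 it was -0.25 with an adjusted p of 0.0135.

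Ptgs2 (ENSMUSG00000032487) encodes the inducible isoenzyme, made by many cells upon stimulation. It had 5.31, 3.87, 4.45 and 3.75 CPM in hydrogel 1 to 4, against 1.06, 0.559, 1.43 and 1.59 CPM in liquid 1 to 4. All hydrogel libraries lay above all liquid libraries. Groups did not overlap for 2 of the 10 genes, Ptgs2 and Hpgds, against 28.4% of all tested genes (14.6% with hydrogel above and 13.8% with hydrogel below). Its raw counts were low, from 116 to 194 in hydrogel libraries and from 17 to 65 in liquid libraries. Ptgs2 was 3.70-fold higher in hydrogel, a log2 fold change of 1.89 ± 0.29 with a confidence interval of 1.24 to 2.54 and an edgeR adjusted p of 0.00134. Over the alternatives the log2 fold change ranged from 1.57 to 2.07, with adjusted p up to 0.00676.

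Among the terminal synthases, which each turn prostaglandin H into a different product, Hpgds was higher in hydrogel and Tbxas1 and Ptges did not pass the test. Tbxas1 (ENSMUSG00000029925) encodes thromboxane synthase. It had 655, 425, 486 and 459 CPM in hydrogel 1 to 4, against 701, 453, 744 and 627 CPM in liquid 1 to 4. The groups overlapped, since hydrogel 1, 3 and 4 lay above liquid 2 and hydrogel 1 also above liquid 4. For Tbxas1 the log2 fold change was -0.32 ± 0.17, with a confidence interval of -0.71 to 0.07 and an edgeR adjusted p of 0.197. It passed the test as lower without hydrogel 1 (log2 fold change -0.47, adjusted p 0.0494), without liquid 2 (-0.45, adjusted p 0.0313) and without both (-0.58, adjusted p 0.000113).

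Ptges (ENSMUSG00000050737), the microsomal prostaglandin E synthase that often works beside the inducible cyclooxygenase, was near the limit of detection. It had 11, 19, 10 and 22 raw counts in hydrogel 1 to 4, against 11, 27, 8 and 13 in liquid 1 to 4. This corresponds to 0.493 ± 0.192 CPM in hydrogel and 0.440 ± 0.309 CPM in liquid (SD, n = 4 each). For Ptges the log2 fold change was 0.20 ± 0.50, with an edgeR adjusted p of 0.802. Its wide confidence interval, -0.92 to 1.32, included changes of either sign.

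Hpgds (ENSMUSG00000029919) encodes the haematopoietic prostaglandin D synthase, known from mast cells and macrophages among other blood cells. It had 14.7, 28.6, 33.9 and 23.8 CPM in hydrogel 1 to 4, against 4.49, 12.7, 6.14 and 7.61 CPM in liquid 1 to 4. The groups did not overlap, although hydrogel 1, the lowest of its group, came close to liquid 2, the highest of its group. Hpgds was 3.27-fold higher in hydrogel, a log2 fold change of 1.71 ± 0.33 with a confidence interval of 0.98 to 2.44 and an edgeR adjusted p of 0.00402. Over the alternatives the log2 fold change ranged from 1.52 to 2.25, with adjusted p up to 0.0171.

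In the lipoxygenase branch, Alox12 was lower in hydrogel, while Alox5, Alox5ap and Lta4h did not pass the test. Alox12 (ENSMUSG00000000320) encodes the platelet-type lipoxygenase, an abundant enzyme of platelets that oxidises free arachidonic acid. It had 1055, 624, 671 and 704 CPM in hydrogel 1 to 4, against 1773, 939, 1949 and 1570 CPM in liquid 1 to 4. The groups overlapped only because hydrogel 1 lay above liquid 2. Alox12 averaged 763 ± 197 CPM in hydrogel and 1558 ± 441 CPM in liquid (SD, n = 4 each), which is 2.04-fold lower in hydrogel. The log2 fold change was -1.03 ± 0.24, with a confidence interval of -1.55 to -0.51 and an edgeR adjusted p of 0.00945. It ranged from -1.39 to -0.91 over the alternatives, with adjusted p up to 0.0349.

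Alox5 (ENSMUSG00000025701) encodes the lipoxygenase that starts leukotriene synthesis. Its level was 593, 426, 493 and 399 CPM in hydrogel 1 to 4, against 429, 340, 474 and 389 CPM in liquid 1 to 4. The groups overlapped, and the log2 fold change of 0.23 ± 0.14 had a confidence interval of -0.09 to 0.54 and an edgeR adjusted p of 0.254. Alox5ap (ENSMUSG00000060063), whose product presents arachidonic acid to that lipoxygenase, had 320, 269, 309 and 303 CPM in hydrogel 1 to 4, against 314, 216, 301 and 303 CPM in liquid 1 to 4. All libraries except liquid 2 and hydrogel 2 lay within a narrow range, and the log2 fold change of Alox5ap was 0.08 ± 0.12 with an edgeR adjusted p of 0.627. Lta4h (ENSMUSG00000015889), the hydrolase that makes leukotriene B, had 96.7, 103, 105 and 109 CPM in hydrogel 1 to 4, against 112, 121, 94.1 and 108 CPM in liquid 1 to 4. Its log2 fold change of -0.07 ± 0.08 had a confidence interval of -0.25 to 0.11 and an edgeR adjusted p of 0.537, the narrowest interval among the 10 genes.

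**Figure D2:**
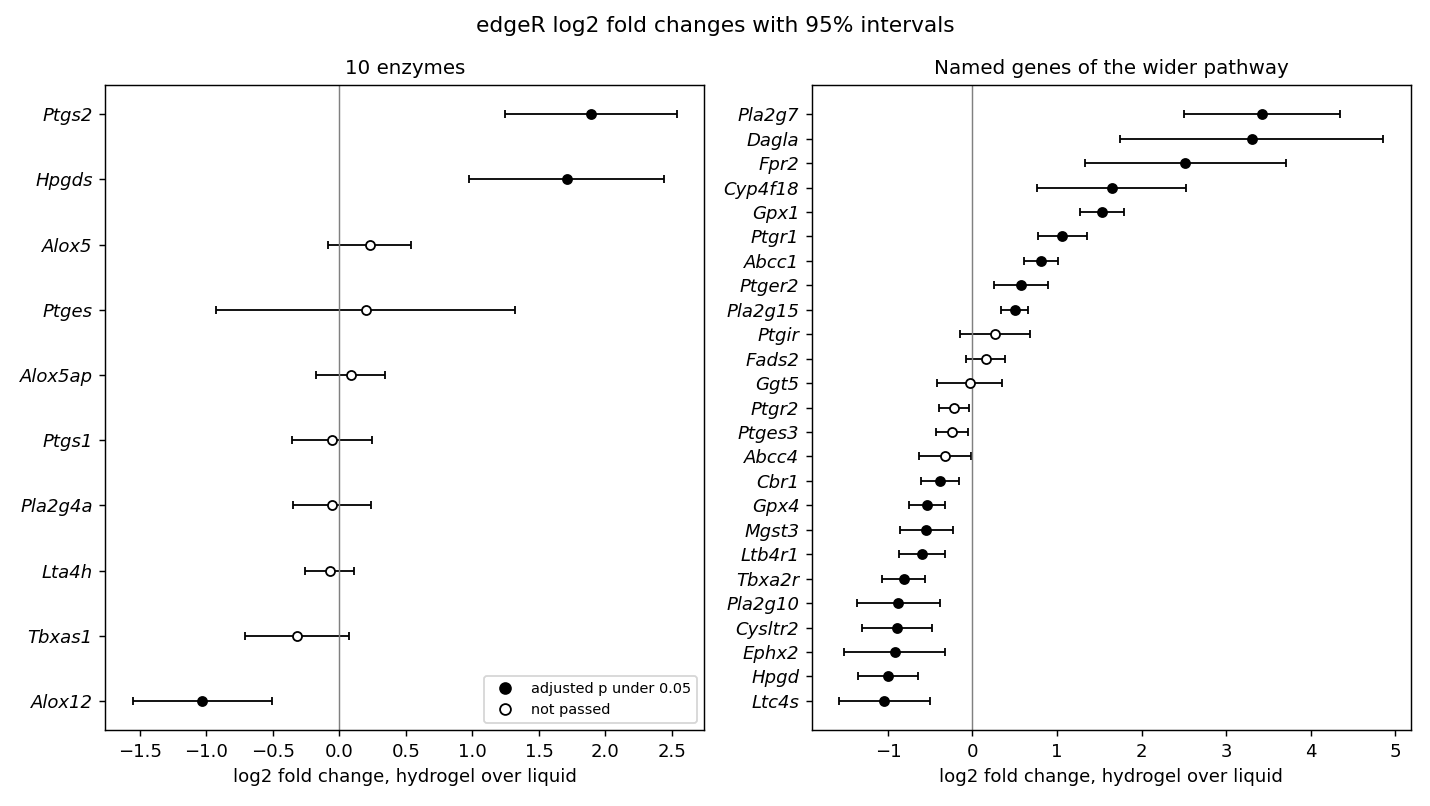
Log2 fold change, hydrogel over liquid, of the 10 genes from edgeR's quasi-likelihood fit (x axis), with bars for the 95% confidence interval. The intervals of Ptgs2 (1.24 to 2.54) and Hpgds (0.98 to 2.44) lie above 0, that of Alox12 (-1.55 to -0.51) lies below 0, and the other intervals include 0.

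Ratios of raw counts within 1 library do not depend on the scaling between libraries. Exact two-sided permutation tests over the 8 libraries compared 4 such ratios, with p adjusted over the 4. The pairs were chosen with earlier results of these data known. Ratios that hold Ptgs2 or Alox12, which passed edgeR's test above, are therefore not separate support for those calls. With 4 libraries against 4, the smallest p possible is 0.0286, which every ratio that separates the cultures gives. Of single genes, 28.4% of those tested separated the cultures. No such share was computed over other pairs of genes. A separated ratio, that of Tbxas1 to Ptgs1 included, is therefore not read as particular to its pair. Ptgs2 had 0.00946, 0.00906, 0.0101 and 0.00897 counts per count of Ptgs1 in hydrogel 1 to 4, against 0.00205, 0.00150, 0.00265 and 0.00326 in liquid 1 to 4. The hydrogel libraries were close to each other, hydrogel 1 included, and all lay above the liquid libraries. The mean log2 ratio was -6.73 ± 0.08 in hydrogel and -8.78 ± 0.48 in liquid (SD, n = 4 each), a difference of 2.05 or 4.14-fold (exact permutation p = 0.0286, adjusted 0.0381).

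Alox5 had 0.562, 0.684, 0.734 and 0.567 counts per count of Alox12 in hydrogel 1 to 4, against 0.242, 0.362, 0.243 and 0.248 in liquid 1 to 4. The ratio separated all hydrogel libraries from all liquid libraries, which Alox12 alone did not. The mean log2 ratio was -0.66 ± 0.19 in hydrogel and -1.89 ± 0.28 in liquid, a difference of 1.23 or 2.34-fold (exact permutation p = 0.0286, adjusted 0.0381, n = 4 each).

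Tbxas1 had 1.17, 0.994, 1.11 and 1.096 counts per count of Ptgs1 in hydrogel 1 to 4, against 1.35, 1.22, 1.38 and 1.29 in liquid 1 to 4. All hydrogel libraries lay below all liquid libraries, by a small margin. The mean log2 ratio was 0.12 ± 0.10 in hydrogel and 0.39 ± 0.08 in liquid, a difference of -0.26 or 1.20-fold lower in hydrogel (exact permutation p = 0.0286, adjusted 0.0381, n = 4 each). The log2 ratio of Alox5ap to Alox5 averaged -0.65 ± 0.20 in hydrogel and -0.53 ± 0.15 in liquid, and did not pass the test (exact permutation p = 0.343, adjusted 0.343, n = 4 each). Without hydrogel 2 the first 3 ratios kept their direction and missed the threshold after adjustment, with an adjusted permutation p of 0.0571 for Ptgs2 to Ptgs1 and for Alox5 to Alox12 and 0.0762 for Tbxas1 to Ptgs1.

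**Figure D3:**
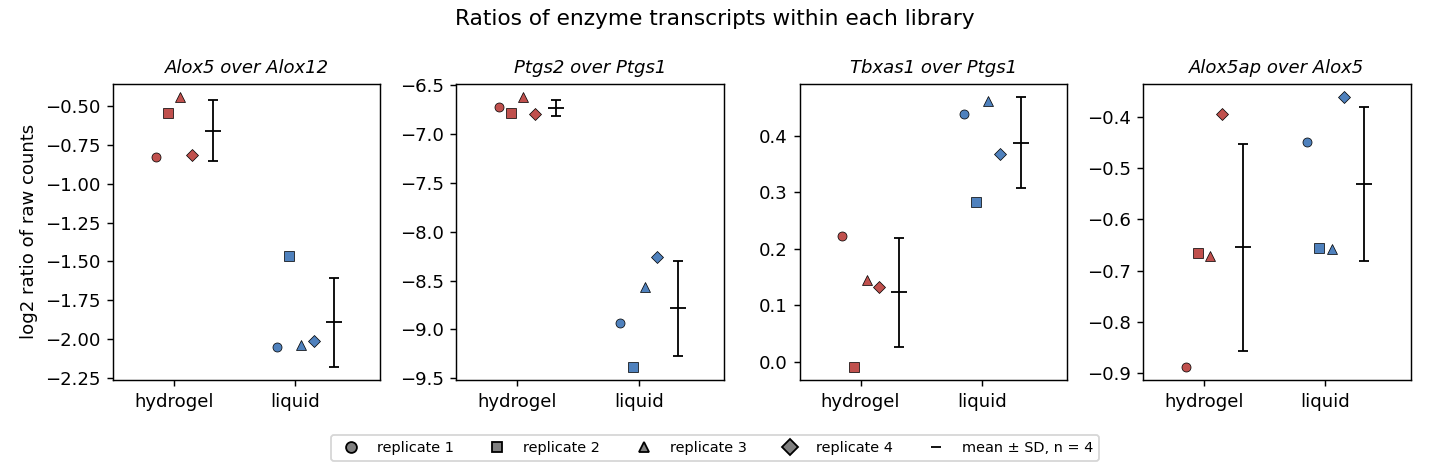
Log2 ratio of raw counts of 2 genes in the same library (y axis) for 4 pairs of genes, with hydrogel left of liquid, symbols for replicate numbers, and bars for mean ± SD (n = 4 each). The groups do not overlap for Alox5 over Alox12, Ptgs2 over Ptgs1 and Tbxas1 over Ptgs1, and overlap for Alox5ap over Alox5.

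Levels were compared between genes as CPM per kilobase of annotated exon, from the union of all exons in GENCODE M21, an annotation of an earlier build than the one the counts were made on. In hydrogel the order ran from Alox5ap (212 ± 15.6 CPM per kb) and Alox12 (187 ± 48.2), whose ranges overlapped, to Ptgs1 (119 ± 17.3) and Alox5 (116 ± 21.0), which overlapped too. Pla2g4a (56.7 ± 8.83 CPM per kb) and Tbxas1 (55.7 ± 11.3) overlapped each other and were followed by Lta4h at 16.9, Hpgds at 3.93, Ptgs2 at 0.949 and Ptges at 0.125. In liquid Alox12 came first at 381 ± 108 CPM per kb, above Alox5ap at 199.6 ± 31.9, Ptgs1 at 123 ± 19.1 and Alox5 at 99.4 ± 13.9. Tbxas1 at 69.4 ± 14.1 and Pla2g4a at 58.9 ± 8.33 CPM per kb overlapped in liquid, and Lta4h had 17.8, Hpgds 1.21, Ptgs2 0.253 and Ptges 0.112 (n = 4 each). On this scale Alox5ap and Alox12 held the first and second places in both cultures. Their order was not settled in hydrogel, where Alox5ap was above Alox12 in 3 of 4 libraries. The scale depends on the exon length, which was 1420 bases for Alox5ap, 4085 for Alox12 and 9094 for Tbxas1. In CPM without this division, Alox5ap (300 in hydrogel, 283 in liquid) lay below Tbxas1 (506 in hydrogel, 631 in liquid). Ptgs2 was far below Ptgs1 in both cultures.

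The spread within a culture was shared by most of the genes. For 7 of the 10 (Pla2g4a, Ptgs1, Ptgs2, Tbxas1, Alox12, Alox5 and Alox5ap), hydrogel 1 was the highest hydrogel library and liquid 2 the lowest liquid library, a pattern of 17.8% of tested genes. For the other 3 (Ptges, Hpgds and Lta4h), hydrogel 1 was the lowest hydrogel library and liquid 2 the highest liquid library, a pattern of 19.5% of tested genes. Hydrogel 1 and liquid 2 therefore took end positions in every one of the 10 genes. Without both libraries, 6 of the 10 genes passed edgeR's test, against a background of 40.6% of the genes tested in that fit. Hpgds and Ptgs2 were the 2 higher ones and Alox12, Tbxas1, Ptgs1 and Pla2g4a the 4 lower ones.

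Markers of other cell types moved with the cultures, and these are bulk samples, in which fewer cells of a type and less RNA per cell cannot be told apart. Of 14 megakaryocyte markers, all were tested and 10 were lower in hydrogel, and their summed level was 39081, 26795, 28812 and 28353 CPM in hydrogel 1 to 4, against 49811, 32948, 53832 and 48527 CPM in liquid 1 to 4. Of 22 tested monocyte and macrophage markers of 23 listed, 18 were higher in hydrogel and 4 did not pass the test. Their sum was 4210, 7925, 9117 and 7614 CPM in hydrogel 1 to 4, against 1281, 2485, 1144 and 1425 CPM in liquid 1 to 4, while the macrophage receptor gene Cd163 stayed under 1 CPM in every library. Hydrogel 1 thus had the highest megakaryocyte sum and the lowest macrophage sum of its group, and liquid 2 had the lowest megakaryocyte sum and the highest macrophage sum of its group.

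Markers of the other blood cells were scarcer. Mast cell and basophil markers, the cells best known for prostaglandin D, summed to 54.3 to 164 CPM in hydrogel and 95.5 to 516 CPM in liquid, with 6 of 7 tested markers lower in hydrogel and Tpsb2 and Cma1 under 1 CPM in every library. Neutrophil markers summed to 322 to 764 CPM in hydrogel and 409 to 1779 CPM in liquid, with 1 of 10 tested markers higher, 1 lower, and Ly6g and Retnlg under 1 CPM. Eosinophil markers summed to 57.0 to 121 CPM in hydrogel and 67.0 to 207 CPM in liquid, and Ccr3 was under 1 CPM. Dendritic cell markers summed to 8.28 to 11.9 CPM in hydrogel and 28.1 to 48.2 CPM in liquid, with 5 of 5 tested markers lower in hydrogel and Xcr1 at 0 in every hydrogel library. Lymphocyte markers summed to 2.36 to 4.27 CPM in hydrogel and 2.95 to 7.76 CPM in liquid, with Ms4a1, Cd3g and Ncr1 among those at 0 in every hydrogel library.

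Set against these sums, the genes fell into different patterns, in a scaling chosen after the data were seen and given without a test. As a percent of the megakaryocyte sum, Alox12 had 2.698, 2.33, 2.33 and 2.48% in hydrogel 1 to 4, against 3.56, 2.85, 3.62 and 3.23% in liquid 1 to 4, so it was lower in every hydrogel library on this scale too. Tbxas1 had 1.59 to 1.69% in hydrogel and 1.29 to 1.41% in liquid, and so lay higher in hydrogel on this scale, the opposite direction to its CPM. Ptgs1 had 1.44 to 1.595% in hydrogel and 1.002 to 1.13% in liquid, and Pla2g4a had 1.14 to 1.26% in hydrogel and 0.781 to 0.925% in liquid. Alox5 had 1.41 to 1.71% in hydrogel and 0.802 to 1.03% in liquid, and Alox5ap had 0.819 to 1.07% in hydrogel and 0.558 to 0.656% in liquid. These 4 genes, like Tbxas1 and Alox12, did not overlap between cultures on this scale, although they overlapped in CPM. No share over all tested genes is given for this scale, so the separation is not read as particular to them. The megakaryocyte markers were themselves lower in hydrogel, which enters each of these percentages.

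As a percent of the macrophage sum, Hpgds had 0.349, 0.360, 0.372 and 0.313% in hydrogel 1 to 4, against 0.351, 0.512, 0.537 and 0.534% in liquid 1 to 4. On this scale Hpgds overlapped between cultures and was no longer higher in hydrogel. Ptgs2 had 0.126, 0.0489, 0.0488 and 0.0493% of the macrophage sum in hydrogel 1 to 4, against 0.0827, 0.0225, 0.125 and 0.111% in liquid 1 to 4, and overlapped. Hydrogel 1 had the most Ptgs2 and the lowest macrophage sum of its group, and liquid 2 the least Ptgs2 and the highest macrophage sum of its group. Among hydrogel 2, 3 and 4, Ptgs2 had the same order as the macrophage sum, whereas among liquid 1, 3 and 4 it did not. There liquid 3 had the lowest macrophage sum (1144 CPM) and more Ptgs2 than liquid 1 (1.43 against 1.06 CPM). These orders rest on few libraries and on low counts of Ptgs2, and were not tested. As a percent of the megakaryocyte sum, Ptgs2 had 0.0132 to 0.0155% in hydrogel and 0.00170 to 0.00327% in liquid. The part of the cell makeup in the changes of Ptgs2, Hpgds and Alox12 was not tested.

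**Figure D4:**
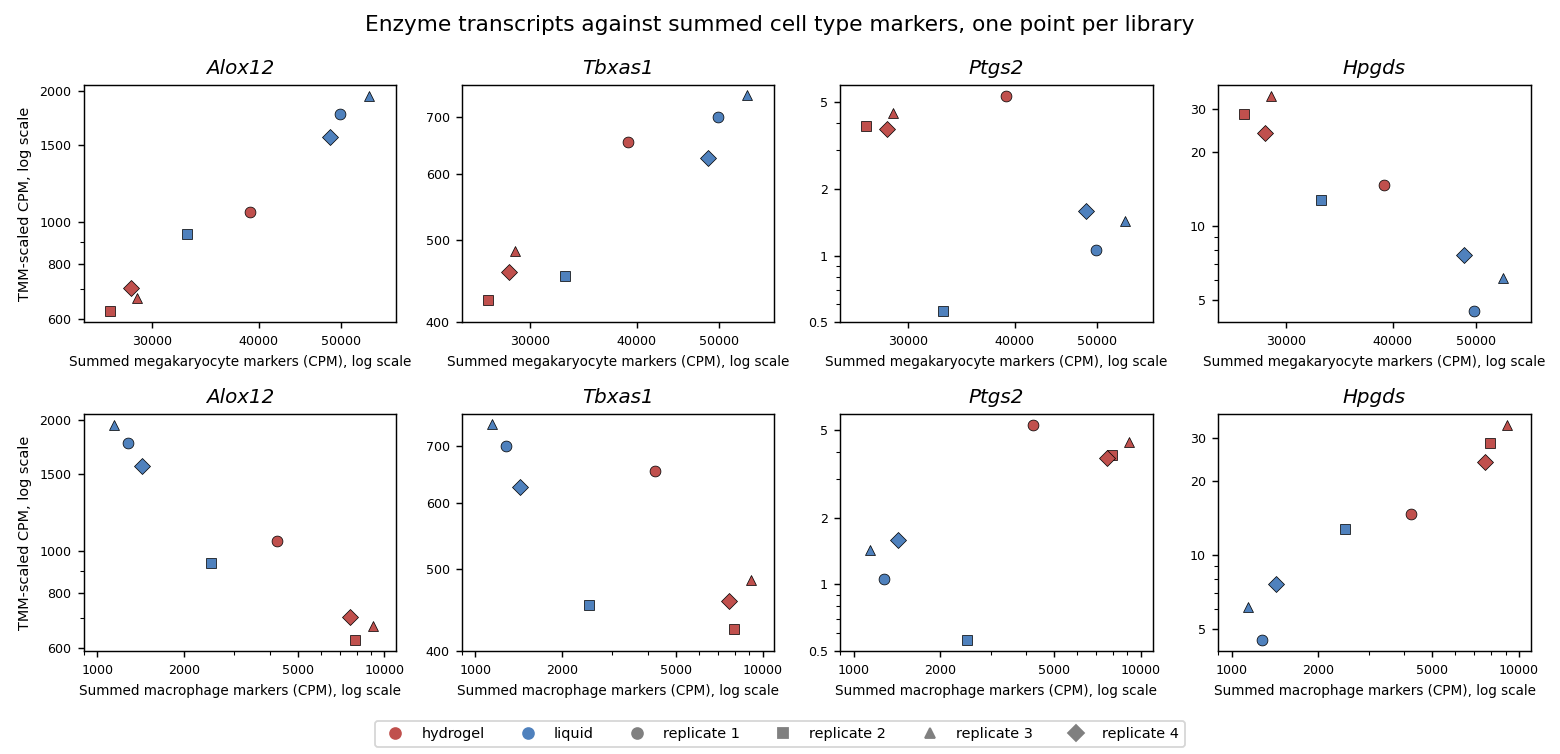
TMM-scaled CPM of 4 genes (y axes, log scale) against the summed CPM of 14 megakaryocyte markers (upper row, x axis, log scale) and of the monocyte and macrophage markers (lower row, x axis, log scale), 1 point per library. Hydrogel 1 and liquid 2 lie between the other libraries for Alox12 and Hpgds, whereas for Ptgs2 they lie at the 2 ends, with hydrogel 1 highest and liquid 2 lowest of all libraries.

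The rest of the pathway was described from a list of 60 further symbols, of which 55 were used and 42 had enough counts to be tested. Of these, 9 were higher in hydrogel, 10 were lower and 23 did not pass the test, which is 45.2% called beside the 29.3% of all tested genes. Their median log2 fold change was -0.04.

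Among 13 tested genes that release or handle arachidonic acid and related lipids, 3 were higher and 1 was lower. Pla2g7, the secreted hydrolase that inactivates platelet-activating factor, averaged 145 ± 43.3 CPM in hydrogel and 13.6 ± 8.28 CPM in liquid (SD, n = 4 each), 10.7-fold higher (log2 fold change 3.42 ± 0.41, edgeR adjusted p 0.000546, and a log2 fold change of 4.09 without both hydrogel 1 and liquid 2). Dagla, a lipase that acts on diacylglycerol, averaged 2.00 ± 0.992 CPM in hydrogel and 0.205 ± 0.227 CPM in liquid, from 243 and 28 counts in all (log2 fold change 3.30 ± 0.70, edgeR adjusted p 0.00652, and a log2 fold change of 4.22 without liquid 2). Pla2g15, a phospholipase of lysosomes, averaged 90.4 ± 7.70 CPM in hydrogel and 63.9 ± 1.74 CPM in liquid (edgeR adjusted p 0.000945). Pla2g10, a secreted phospholipase A2, was lower, at 1.81 ± 0.394 CPM in hydrogel and 3.35 ± 0.680 CPM in liquid (edgeR adjusted p 0.0144, and 0.0505 without hydrogel 2). Fads2, a desaturase in arachidonic acid synthesis, was the most abundant that did not pass, with 843 ± 66.7 CPM in hydrogel and 756 ± 86.7 CPM in liquid (edgeR adjusted p 0.289, and 0.0439 with library totals alone).

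Of 2 further prostaglandin synthases that were tested, neither passed with all libraries, TMM scaling and the low-count filter used for the other results. Ptges3, a co-chaperone that also has prostaglandin E synthase activity, averaged 43.7 ± 2.81 CPM in hydrogel and 51.5 ± 4.87 CPM in liquid (edgeR adjusted p 0.0574), and passed as lower with upper-quartile scaling (0.0271), with the 1 CPM filter (0.0493) and without liquid 3 (0.0168). Among 6 tested lipoxygenase and leukotriene genes, 2 were lower. Ltc4s, the synthase of leukotriene C, averaged 1.44 ± 0.320 CPM in hydrogel and 2.95 ± 0.720 CPM in liquid (log2 fold change -1.04 ± 0.24, edgeR adjusted p 0.00981). Mgst3, a membrane enzyme related to it, averaged 7.60 ± 0.650 CPM in hydrogel and 11.1 ± 1.84 CPM in liquid, with overlapping groups (edgeR adjusted p 0.0163, and 0.0523 without hydrogel 2). Ggt5, which trims leukotriene C, had 7.02 CPM in hydrogel and 7.17 CPM in liquid (edgeR adjusted p 0.909).

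Inactivation was the group with the largest share of calls, 7 of 8 tested genes (87.5%, beside 29.3% of all tested genes), in both directions. The list is short and was made with earlier results of these data known, so this share is not read as a result about inactivation. Hpgd, the dehydrogenase that inactivates prostaglandins, averaged 27.8 ± 4.14 CPM in hydrogel and 55.6 ± 11.6 CPM in liquid, 2.00-fold lower (edgeR adjusted p 0.00153). Ptgr1, a reductase that inactivates leukotriene B and prostaglandin metabolites, averaged 31.1 ± 5.75 CPM in hydrogel and 14.9 ± 0.771 CPM in liquid, 2.09-fold higher (edgeR adjusted p 0.000554). Gpx1, a peroxidase that reduces lipid and hydrogen peroxides, averaged 381 ± 63.1 CPM in hydrogel and 132 ± 6.40 CPM in liquid, 2.89-fold higher (edgeR adjusted p 0.000113). Gpx4, the peroxidase of membrane lipid hydroperoxides, was lower, at 81.6 ± 9.21 CPM in hydrogel and 119 ± 10.99 CPM in liquid (edgeR adjusted p 0.00259). Cyp4f18, a cytochrome P450 that oxidises leukotriene B, averaged 9.41 ± 3.50 CPM in hydrogel and 3.03 ± 1.52 CPM in liquid, higher in hydrogel with overlapping groups (log2 fold change 1.65 ± 0.40, edgeR adjusted p 0.0119, and a log2 fold change of 2.25 without both hydrogel 1 and liquid 2).

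Cbr1, a carbonyl reductase, and Ephx2, the soluble epoxide hydrolase, were lower with adjusted p nearer the threshold. Cbr1 averaged 11.1 ± 0.345 CPM in hydrogel and 14.5 ± 1.45 CPM in liquid (edgeR adjusted p 0.0163, 0.0708 with library totals alone and 0.0558 without hydrogel 2). Ephx2 averaged 0.774 ± 0.166 CPM in hydrogel and 1.47 ± 0.346 CPM in liquid, 1.89-fold lower (edgeR adjusted p 0.0277, lost in 6 of 17 alternatives and up to 0.0880 without hydrogel 2). Ptgr2, another reductase, did not pass at 71.6 CPM in hydrogel and 83.5 CPM in liquid (edgeR adjusted p 0.0589), and passed as lower without liquid 2 (0.0104), without both hydrogel 1 and liquid 2 (0.00603) and with upper-quartile scaling (0.0227).

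Of 2 tested transporters, Abcc1, which exports leukotriene C, averaged 337 ± 40.8 CPM in hydrogel and 193 ± 8.30 CPM in liquid, 1.75-fold higher (edgeR adjusted p 0.000384). Abcc4, an exporter of prostanoids found in platelet granules, did not pass at 198 ± 29.8 CPM in hydrogel and 249 ± 41.8 CPM in liquid (log2 fold change -0.33 ± 0.14, edgeR adjusted p 0.101). Abcc4 passed as lower without hydrogel 1 (edgeR adjusted p 0.0341), without liquid 2 (0.0128) and without both (log2 fold change -0.52, adjusted p 0.000196).

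Among 11 tested receptors, 2 were higher and 3 were lower. Tbxa2r, the receptor for thromboxane, averaged 128 ± 13.0 CPM in hydrogel and 224 ± 33.4 CPM in liquid (log2 fold change -0.81 ± 0.11, edgeR adjusted p 0.000922). Cysltr2, a receptor for cysteinyl leukotrienes, averaged 145 ± 35.0 CPM in hydrogel and 269 ± 54.8 CPM in liquid, 1.86-fold lower (edgeR adjusted p 0.00580). Ltb4r1, the high-affinity receptor for leukotriene B, averaged 17.6 ± 1.74 CPM in hydrogel and 26.6 ± 4.05 CPM in liquid (edgeR adjusted p 0.00540). Ptger2, a receptor for prostaglandin E, was higher, at 22.7 ± 1.66 CPM in hydrogel and 15.3 ± 3.16 CPM in liquid (edgeR adjusted p 0.0141). Fpr2, a receptor of formyl peptides and lipoxin, averaged 3.48 ± 1.77 CPM in hydrogel and 0.615 ± 0.501 CPM in liquid (log2 fold change 2.52 ± 0.53, edgeR adjusted p 0.00661, and a log2 fold change of 3.18 without liquid 2). Ptgir, the prostacyclin receptor, had the highest level of those that did not pass, with 324 ± 50.5 CPM in hydrogel and 269 ± 76.5 CPM in liquid (edgeR adjusted p 0.306, and 0.0388 as higher without liquid 3).

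For each of the 10 genes, the 3 named genes of at least 5 CPM with the most similar pattern were found by Pearson r of log2 CPM over the 8 libraries. The libraries share a culture contrast and the positions of hydrogel 1 and liquid 2, so high r is common and is given as a description. Ptgs1 was nearest to Clic4 (r = 0.997), Hacd4 (0.985) and Riok3 (0.983), and Pla2g4a likewise to Clic4 (0.990), then Mlec (0.978) and Pitpnc1 (0.974). Tbxas1 was nearest to Vwf (0.996), the gene of von Willebrand factor, a protein of megakaryocyte granules and one of the 14 megakaryocyte markers, then to Sord (0.992) and Cd59a (0.991). Alox12 was nearest to Map2k3 (0.997), Ppil3 (0.997) and Tmem246 (0.996). Ptgs2 was nearest to D6Wsu163e (0.987), the cytokine gene Il1b (0.982) and Thumpd3 (0.982), and Hpgds to Ifi207 (0.999), Rell1 (0.998) and St6gal1 (0.997). Alox5 was nearest to Adgrg3 (0.994), Mettl27 (0.979) and Dnajb12 (0.975), and Alox5ap to Usp4 (0.986), Slc9a9 (0.982) and Arhgdib (0.967). Lta4h was nearest to Fignl1 (0.982), Cnnm3 (0.977) and Srsf7 (0.972), and Ptges to Pgam5 (0.986), Trip13 (0.970) and Vegfa (0.968), though the low counts of Ptges leave its order poorly determined. Among these nearest genes, none was shared by Ptgs2 and Ptgs1, or by Alox12 and Alox5. With lists of only 3 genes from a pool of 9380, this says little about how alike those pairs are.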

How the data were processed

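Stranded RNA-seq of polyA RNA, per the labels' protocols, was made from 8 libraries of cultured mouse megakaryocytes. The authors deposited raw whole-number counts per gene, with no normalization. The submitters' processing notes name STAR 2.7.10b, HTSeq 0.13.5, bcl2fastq and the build GRCm39. Annotation release, counting options and strand setting were not given in the sources used here, so genes with an antisense or overlapping partner are uncertain.

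Groups and replicate numbers came from the titles. The p-values measure the spread between the 4 cultures of each group. The table lists 27679 genes, 2 stray lines without a gene were dropped, and 0 sample columns were unused. Identifiers were matched to symbols with GENCODE M21, an annotation of another build: 26534 had a symbol and 1145 did not, and 11 symbols were shared by several identifiers. Totals ran from 27012172 to 49281611 counts per library.

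After filterByExpr by group and TMM scaling, counts were fitted in R 4.3.3 by the quasi-likelihood method of edgeR 4.0.16 on culture alone, with p adjusted by Benjamini-Hochberg over 13845 genes and a threshold of 0.05. CPM are TMM-scaled, with mean ± SD over 4 libraries. Ratios are of raw counts, with 0.5 counts added to both genes as an alternative. Standard errors are the log2 fold change divided by the square root of F. Of the 60 further pathway symbols, 4 were not matched, 1 was shared by 2 identifiers and left out, 13 were not tested, and 14 were under 1 CPM in both cultures.

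All 10 genes are named, and of the wider list every gene that passed and, per role, the most abundant that did not. Genes with a similar pattern were the 3 with the highest Pearson r (log2 CPM with a prior count of 2, predicted genes left out). The genes, lists and tests were chosen with earlier results of these data known. The scripts were tested on simulated counts. Alternatives were DESeq2 size factors, upper-quartile scaling, library totals, no low-count filter, a filter of 1 CPM in 4 libraries, limma-voom (limma 3.58.1), DESeq2 1.42.0, an adjusted p under 0.01, a replicate block, each library left out, and both hydrogel 1 and liquid 2 left out. Percentages of marker sums were added after seeing the data. The values of a marker gene are not reported here. Tables and figures used Python 3.11.15, pandas 2.3.3, numpy 2.4.6 and matplotlib 3.10.9.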

Additional observations from a re-analysis of the deposited data

Results flagged for a closer look

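In 7 of 78 sets of 4 libraries examined (the 10 genes, the named pathway genes and the 4 ratios, in each culture), the highest or lowest library was separated from the others by a gap above Dixon's 95% critical value, and chance gives about 1 in 20. Hydrogel 1 was highest for Ptgs1 (561.8 CPM, the other hydrogel libraries at 418 to 440), for Pla2g4a (447 CPM) and for Tbxa2r (147 CPM), and lowest for Pla2g7 (80.3 CPM). Liquid 2 was lowest for Alox5ap (216 CPM) and highest for the log2 ratio of Alox5 to Alox12 (-1.46). Liquid 4 was highest for Ltc4s (4.02 CPM).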

How the results depend on the processing

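Ptgs2, Hpgds and Alox12 kept their direction and their call under all 17 alternatives. Of 169 combinations of a gene of the 10 and an alternative, 155 kept direction and call, 5 gained a call and 9 turned sign, each for a gene that did not pass in either fit. With library totals the log2 fold change was 0.0147 for Ptgs1 and 0.0116 for Pla2g4a, and without both hydrogel 1 and liquid 2 it was -0.0424 for Alox5ap and 0.0289 for Lta4h. Leaving out 1 library, it ranged from -0.161 to 0.00782 for Ptgs1 and from -0.172 to 0.0167 for Pla2g4a (above 0 without liquid 3), from -0.0267 to 0.137 for Alox5ap (below 0 without liquid 2), and from -0.0871 to 0.774 for Ptges (below 0 without liquid 3 and without hydrogel 4). The 1 CPM filter removed Ptges, so that it has no value there. Leaving out 1 library gave 3 to 4 called genes of the 10, 15 to 24 of the wider list (19 with all libraries) and 2700 to 4975 of all genes (4052 with all libraries), the lowest without hydrogel 2. Leaving out both hydrogel 1 and liquid 2 gave 6 of the 10, 26 of the wider list (12 higher and 14 lower) and 5633 of all genes. At an adjusted p under 0.01, 2091 genes were called. Upper-quartile scaling gave 1755 higher and 2492 lower genes and library totals 2280 higher and 1513 lower, against 2096 and 1956 with TMM. Same-numbered libraries did not deviate together throughout (correlations 0.22, 0.33, -0.134 and 0.103). Whether the numbers pair the samples cannot be told from these values. With the replicate block, edgeR called 4238 genes and the same 3 of the 10, and of the named pathway genes Abcc4 (adjusted p 0.0289) and Ptgr2 (0.0390) passed as lower. Under sign flips of the same-numbered pairs, the ratio differences of 1.23 (Alox5 to Alox12), 2.05 (Ptgs2 to Ptgs1), -0.26 (Tbxas1 to Ptgs1) and -0.12 (Alox5ap to Alox5) each had an exact p of 0.125, the smallest that 4 pairs allow. Without both hydrogel 1 and liquid 2 the first 3 differences were 1.43, 1.85 and -0.33, with an exact p of 0.1, the smallest possible. Leaving out 1 library, they ranged from 1.16 to 1.37, from 1.85 to 2.22 and from -0.30 to -0.22, and Alox5ap to Alox5 from -0.21 to -0.05. The low counts of Ptges, and of Ptgs2 in liquid, limit the precision of both.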
